A study of Saccharomyces cerevisiae with 3 samples.

Results

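Glutathione synthesis, recycling, breakdown and uptake were followed through 8 genes of Saccharomyces cerevisiae, chosen by symbol and role from the array platform's annotation; the rule used no measured value, but it was written with earlier results of these arrays known. They were GSH1 and GSH2 (synthesis), GLR1 (reduction), ECM38, DUG1, DUG2 and DUG3 (breakdown) and OPT1 (uptake), out of 5539 genes measured. All 8 were present, each as 2 adjacent spots, which makes 16 of the 13056 spots of an array. The 3 arrays of the study, numbered replicates 1 to 3, were of the 2-colour kind. Each compared RNA of a strain labelled YAP1 mutant, which the series title calls a yap1 deletion, with RNA of the wild type, and both strains had been kept for 1 h with arsenite (trivalent arsenic) at 1.0 mM. The sources used here do not give the strain background, the construction of the allele or the number of cultures, and no culture without arsenite was part of the comparison. Whether the replicates were separate cultures is not said in the labels, so p-values cover the spread among 3 arrays and that spread may be technical.

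Glutathione is a tripeptide of glutamate, cysteine and glycine and the main low-molecular-weight thiol of yeast. Gsh1 joins glutamate to cysteine in the rate-limiting step, Gsh2 adds glycine, and Glr1 returns oxidised glutathione to the thiol form with NADPH. The cell takes glutathione apart by a vacuolar route, through the gamma-glutamyl transpeptidase Ecm38, and by a cytosolic route, in which Dug2 and Dug3 act together as a glutamine amidotransferase-type enzyme and Dug1 splits the remaining cysteinyl-glycine. Opt1 carries glutathione across the plasma membrane into the cell. Arsenite binds thiols, and in yeast its glutathione conjugate is moved into the vacuole by Ycf1. Yap1 is a bZIP transcription factor that accumulates in the nucleus when thiol-reactive or oxidising compounds modify its cysteines, and GSH1 and GLR1 have long been listed among its targets.

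In the mutant both synthesis genes, the reductase gene and the transpeptidase gene ECM38 fell, whereas DUG2 and DUG3 of the cytosolic route rose and DUG1 and OPT1 did not pass the test. Thus 4 of the 8 genes fell and 2 rose. Over all 5539 genes 169 fell, or 3.05%, and 45 rose, or 0.812% (limma, mean log2 ratio of the 3 arrays tested against 0 with a moderated spread, Benjamini-Hochberg adjusted p under 0.05 over all genes). The median log2 ratio was -0.53 over the 8 genes and -0.01 over all genes. The 4 decreases lay between 1.73-fold (ECM38) and 3.63-fold (GLR1), and the 2 increases were 1.76-fold (DUG2) and 1.57-fold (DUG3). The decreases were called under every normalization tried, but the increases were not.

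**Figure D1:**
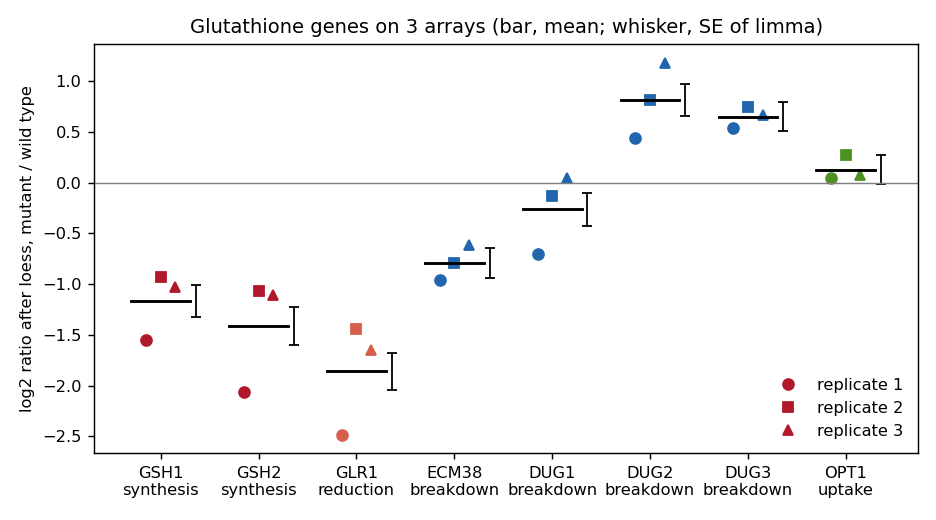
Log2 ratios of mutant over wild type after loess for the 8 glutathione genes (x axis, with their role), 1 point per array, with the mean as a bar and the standard error of limma's fit as a whisker. GSH1, GSH2, GLR1 and ECM38 lie below 0 and DUG2, DUG3 and OPT1 above 0 on all 3 arrays, whereas DUG1 lies on both sides of 0.

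Ratios are log2 of mutant over wild type, a direction that the table does not state. It is called likely because the titles name the mutant before the wild type, because the mutant carried Cy5 and the wild type Cy3 on every array, and because YAP1 then reads lower in the mutant. All directions rest on it. With 1 dye orientation, dye and genotype cannot be told apart. The deposited ratios had medians of -0.52, -0.85 and -0.55 on the 3 arrays, and in the brightest 10% of spots -1.11, -1.19 and -1.33, so they had not been centred. Because the ratio moved with the signal, a loess curve was subtracted within each array, and the normalized ratios state how a gene stood relative to spots of like brightness. They do not show absolute amounts, and fewer cells and less RNA per cell cannot be told apart. The signals of both channels, in scanner units, were worked out from the ratios, which are quotients of whole numbers. The weakest mutant signals were 306, 370 and 383 and the medians 660, 892 and 708 on replicates 1, 2 and 3. Across genes, which are no independent replicates, Pearson's r was 0.530 between replicates 1 and 2, 0.528 between 1 and 3, and 0.693 between 2 and 3. Replicate 1 had the wider spread, with an SD over genes of 0.55 against 0.30 and 0.34. Standard errors (SE) given below are those of limma's fit, which moderates the spread of each gene with that of all genes. Plain SEs over the 3 arrays were larger for GSH2 (0.33), GLR1 (0.32), DUG1 (0.23), DUG2 (0.21) and GSH1 (0.19). They were smaller for ECM38 (0.10), OPT1 (0.07) and DUG3 (0.06).

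**Figure D2:**
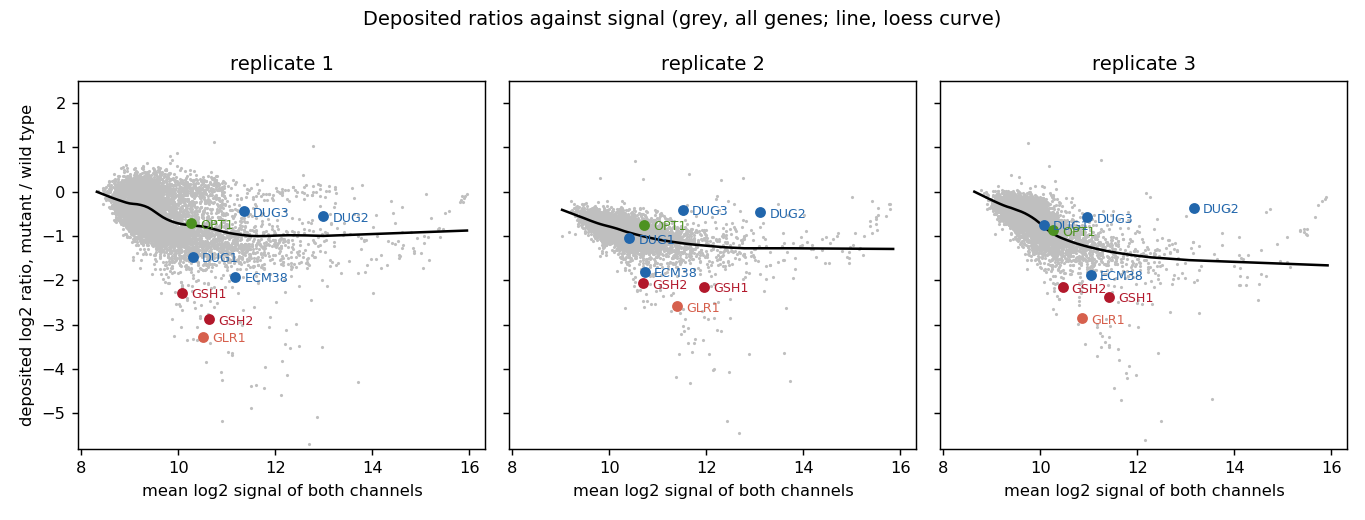
Deposited log2 ratio (y axis) against the mean log2 signal of both channels (x axis) on each array, with all genes in grey, the loess curve as a line and the glutathione genes in colour. GSH1, GSH2, GLR1 and ECM38 stand below the curve on each array, and DUG2 and DUG3 stand above it although their deposited ratios are below 0.

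The mutated gene was read first. YAP1, each value the mean of 2 spots, had deposited log2 ratios of -1.26, -2.34 and -2.23 on replicates 1, 2 and 3, and normalized ones of -0.30, -1.21 and -1.04 (mean -0.85 ± 0.17, SE, n = 3 arrays, adjusted p = 0.0107 by limma). Its 2 spots on replicate 1 read 1815 and 1344 in the mutant, against 3418 and 4108 in the wild type. The mutant signal was thus lower than that of the wild type but above the median of its channel (660). It was above that median on the other arrays too. Mutant spots read 1137 and 1063 on replicate 2 (median 892), and 985 and 723 on replicate 3 (median 708). After loess the first spot had 0.06 and the second -0.66 on replicate 1. The call was lost in 5 of 18 alternatives. It was lost without replicate 2 (-0.67), with the first spot alone (-0.66) and with arrays scaled to 1 spread (-1.10). An adjusted p under 0.01 and the unmoderated statistic also lost it. Median centring gave -1.30. Which part of the gene the spots cover was not used here, so they may lie outside a deleted part.

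GSH1 encodes gamma-glutamylcysteine synthetase. On replicate 1 its 2 spots had signals of 499 and 488 in the mutant, against 2442 and 2352 in the wild type. On replicate 2 they had 1823 and 1962 in the mutant, against 8463 and 8256 in the wild type, and on replicate 3 they had 1179 and 1233 against 6369 and 6119. The mutant was the weaker channel in all 6 spots, by a factor that changed little between arrays: the deposited log2 ratios were -2.28, -2.14 and -2.37. Set against spots of like signal, the log2 ratios were -1.55, -0.93 and -1.03, a mean of -1.17 ± 0.16 (SE, n = 3 arrays, adjusted p = 2.38e-04 by limma), or 2.25-fold lower in the mutant. GSH1 stood 58th from the bottom of 5539 genes. On replicate 1 its mean log2 signal came out at 10.09, against 11.96 and 11.42 on replicates 2 and 3. Signals were worked out up to a whole-number factor inferred for each spot, here 1 and 8, and these factors may be wrong. The normalized ratio of -1.55 depends on them, whereas the deposited ratio of -2.28 does not. When the loess curve was instead read at the signal averaged over arrays, the mean was -1.12.

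GSH2 encodes glutathione synthetase. Its 2 spots gave 609 and 570 in the mutant and 4576 and 4119 in the wild type on replicate 1. They gave 801 and 828 in the mutant and 3519 and 3317 in the wild type on replicate 2, and 665 and 668 against 3021 and 2936 on replicate 3. The wild-type values lay above 89.4% to 93.4% of the spots of their channel, whereas the mutant values lay above 37.1% to 38.7% only. Normalized log2 ratios were -2.06, -1.06 and -1.11, with replicate 1 the lowest, and the mean was -1.41 ± 0.19 (SE, adjusted p = 1.88e-04 by limma), or 2.66-fold lower. GSH1 and GSH2 differed by 0.52, 0.13 and 0.08 (GSH1 minus GSH2), so after loess GSH2 had the lower ratio on each array. Before loess that order held on replicate 1 alone. The deposited log2 ratios were -2.88, -2.07 and -2.16 for GSH2, against -2.28, -2.14 and -2.37 for GSH1. Over 3 arrays an exact two-sided sign-flip test cannot give a p below 0.25, and the difference after loess has no further test.

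GLR1, the glutathione reductase gene, had the lowest ratio of the 8 genes on each array. In the mutant its spots had 435 and 505 on replicate 1, 1024 and 1177 on replicate 2, and 667 and 719 on replicate 3. In the wild type they had 4525 and 4525, 5818 and 7444, and 5364 and 4650 on the same arrays. Mutant and wild-type spots did not overlap, and the strongest mutant spot had less signal than the weakest wild-type spot. These signals are not centred, and the same held for DUG1, OPT1 and DUG2, so it does not set GLR1 apart. The normalized log2 ratios of -2.49, -1.44 and -1.65 gave a mean of -1.86 ± 0.18 (SE, adjusted p = 8.66e-06 by limma), or 3.63-fold lower, 25th from the bottom of all genes. The duplicate spots of GLR1 differed by up to 0.31 on the log2 scale, the widest gap among the 8 genes.

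The mutant signal of GLR1 lay above 17.4%, 72.9% and 45.9% of spots of its channel on replicates 1, 2 and 3, and that of GSH1 above 21.5%, 93.5% and 91.8%. It was thus below the median of the channel on replicate 1 for GSH1, on replicates 1 and 3 for GLR1, and on all 3 arrays for GSH2. All of these positions rest on inferred factors of the signals. On replicate 1 the factors were 1 and 8 for GSH1 and 5 and 5 for GLR1. For GSH2 they were 1 and 3, 9 and 1, and 19 and 4 on replicates 1, 2 and 3. With every factor set to 1 before loess, the means were -1.44 for GSH1, -1.70 for GSH2 and -2.07 for GLR1, and all 3 genes passed. The sources used here name no background step, and what share of these signals was background was not tested. With a normexp background correction before loess the means were -2.32 for GSH2 and -2.83 for GLR1, each more than 1.5 times as large on the log2 scale, and for GSH1 the mean was -1.66. All 3 genes passed there too.

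**Figure D3:**
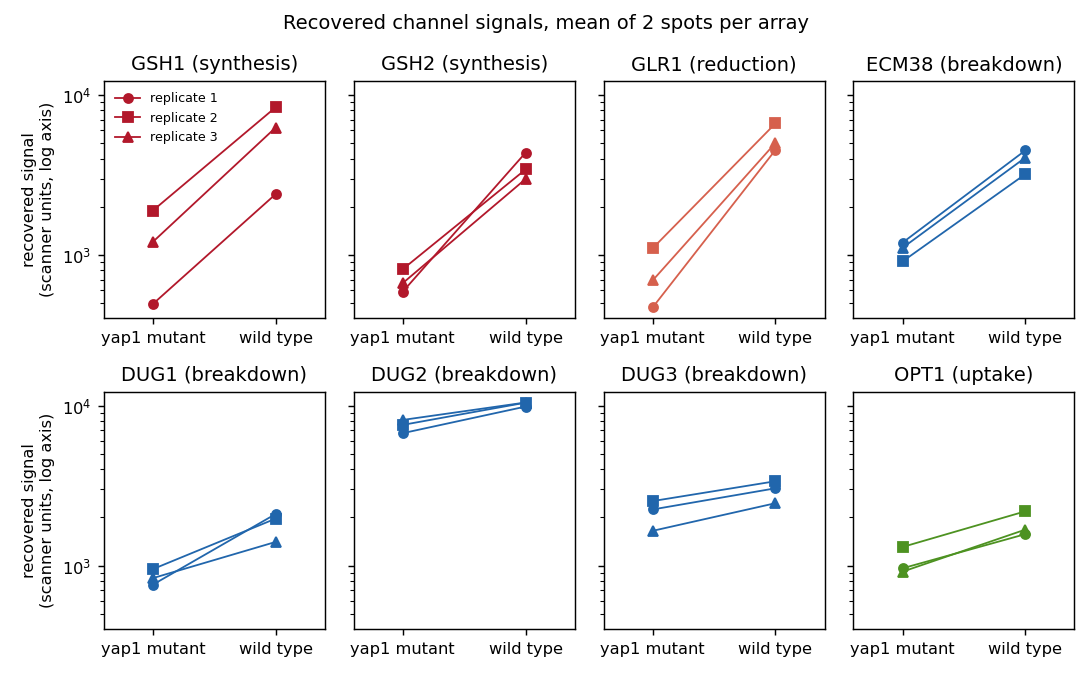
Recovered signals (y axis, scanner units, log axis) of the yap1 mutant and the wild type for each glutathione gene, with the mean of 2 spots per array and a line joining the channels of 1 array. The lines climb steeply towards the wild type for GSH1, GSH2, GLR1 and ECM38 and are shallow for DUG2, DUG3 and OPT1; levels of different genes should not be compared.

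Breakdown genes did not move together. ECM38, the gene of the vacuolar transpeptidase, had spot signals of 1242 and 1145 in the mutant, against 4353 and 4639 in the wild type on replicate 1. Replicate 2 read 944 and 878 against 3426 and 2966, and replicate 3 read 1142 and 1073 against 3833 and 4278. Mutant spots were again below all wild-type spots, which on these uncentred signals also held for DUG1, DUG2 and OPT1. The normalized log2 ratios were -0.96, -0.80 and -0.61, and ECM38 fell by 0.79 ± 0.15 on the log2 scale (SE, n = 3 arrays, adjusted p = 0.00460 by limma), the smallest of the 4 decreases. Median centring gave -1.22. Its deposited ratios of -1.91, -1.81 and -1.87 differed by 0.11 at most.

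DUG2 and DUG3 encode the partners of the cytosolic gamma-glutamyl enzyme. DUG2 gave bright spots, of 6733 and 6708 in the mutant and 9833 and 9871 in the wild type on replicate 1. Replicate 2 had 7618 and 7522 in the mutant and 10341 and 10505 in the wild type, and replicate 3 had 8368 and 7892 against 10820 and 10071. The mutant channel was the weaker here as well, but less so than in spots of like brightness. The loess curve stood at -0.995, -1.28 and -1.55 at DUG2, against deposited ratios of -0.55, -0.46 and -0.36. The normalized log2 ratios were therefore 0.44, 0.82 and 1.18, a mean of 0.81 ± 0.16 (SE, adjusted p = 0.00803 by limma), 16th from the top of all genes.

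DUG3 had deposited ratios of -0.44, -0.41 and -0.57, where the curve stood at -0.98, -1.16 and -1.24. Its spots read 2298 and 2189 in the mutant and 3128 and 2955 in the wild type on replicate 1, 2574 and 2487 against 3439 and 3295 on replicate 2, and 1676 and 1623 against 2393 and 2516 on replicate 3. The normalized log2 ratios of 0.54, 0.75 and 0.66 lay close together, with an SD of 0.11. Their mean was 0.65 ± 0.14 (moderated SE of limma's fit, adjusted p = 0.0161 by limma), 34th from the top. DUG2 and DUG3 stood apart from ECM38 on each array: ECM38 minus DUG2 was -1.40, -1.61 and -1.80, and ECM38 minus DUG3 was -1.50, -1.54 and -1.28.

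Both increases rest on the normalization. With each array centred on its median in place of loess, which called 17.8% of all genes lower and 4.28% higher, DUG2 had 0.18 and DUG3 0.17 (adjusted p = 0.450 and 0.498 by limma), and the uncentred deposited means were -0.46 and -0.47. Both also missed the threshold after normexp (0.83 and 0.82), with arrays scaled to 1 spread (0.98 and 0.75) and without replicate 3 (0.63 and 0.64), and DUG3 missed it without replicate 2 (0.60). They passed with print-block medians, with a wider loess span and with the signal averaged over arrays (0.89 and 0.70).

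DUG1, the gene of the cysteinyl-glycine dipeptidase, had normalized log2 ratios of -0.71, -0.13 and 0.04. These values spanned 0, and the mean of -0.26 ± 0.16 did not pass (adjusted p = 0.404 by limma, 95% interval -0.61 to 0.09). Its spots on replicate 1 had 721 and 800 in the mutant, against 2028 and 2173 in the wild type, and on replicate 3 they had 818 and 853 against 1345 and 1467. The lower ratio thus came mainly from replicate 1, the array of wider spread. With median centring DUG1 had -0.45 and passed (adjusted p = 0.0365 by limma). The fit gave DUG1 the same SE there as the other glutathione genes (0.17), so its own spread over arrays did not enter that p-value. DUG1 minus DUG2 was -1.15, -0.94 and -1.14, so the dipeptidase gene had the lower ratio of the pair on each array.

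OPT1, the plasma membrane glutathione transporter gene, did not pass. Spot signals were 944 and 981 in the mutant and 1600 and 1546 in the wild type on replicate 1, 1329 and 1287 against 2178 and 2191 on replicate 2, and 860 and 974 against 1557 and 1801 on replicate 3. After loess the log2 ratios were 0.05, 0.27 and 0.07, with a mean of 0.13 ± 0.14 (SE, adjusted p = 0.645 by limma). The 95% interval of -0.18 to 0.44 left room for changes of either sign but for none as large as those of GSH1, GSH2, GLR1 and ECM38. With median centring the sign turned (-0.13), and the gene did not pass there either.

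**Figure D4:**
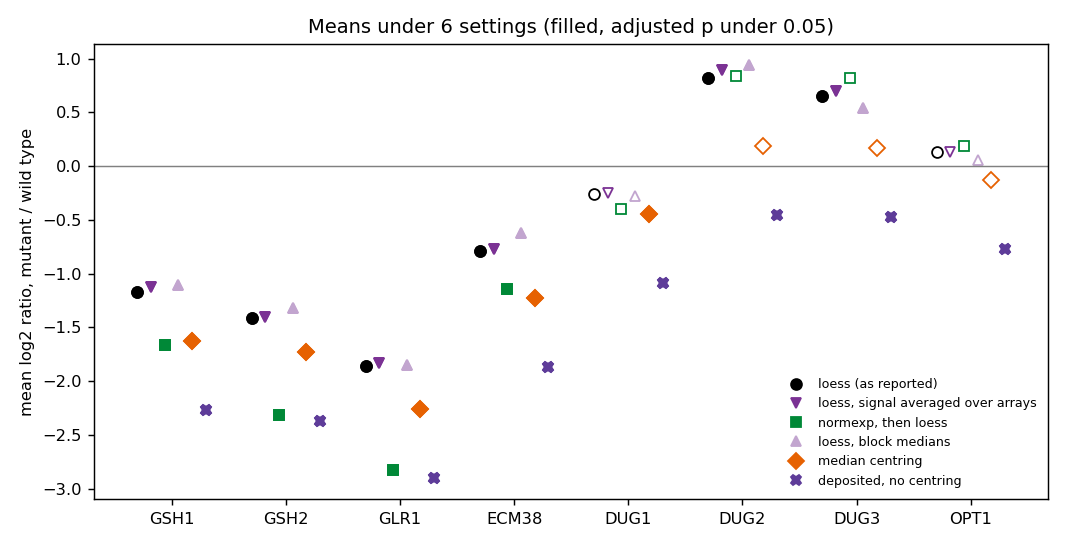
Mean log2 ratio of mutant over wild type (y axis) for each glutathione gene under 6 normalizations, with filled symbols where limma's adjusted p was under 0.05. GSH1, GSH2, GLR1 and ECM38 are below 0 and filled throughout, whereas DUG2 and DUG3 lie near 0 with median centring and below 0 without centring.

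The 8 genes lie on 7 chromosomes of the R64 gene table, with GSH1 and OPT1 on the same one, and none of them is the next gene to another. Of the 16 protein-coding genes directly beside them, all measured, 1 fell and 0 rose, beside 3.05% and 0.812% of all genes. Their median log2 ratio was -0.19. The exception, named after its value was seen, was RRT8 next to GSH2, with -1.06, -0.55 and -0.58 on the arrays (mean -0.73, adjusted p = 0.0129 by limma). GAL11, on the other side of GSH2, had -0.09. SSU1 and RPS6A beside GLR1 had 0.44 and 0.27, and SAF1 and MRPL27 beside DUG2 had -0.38 and -0.24; none of these passed.

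By distance over the 3 normalized array ratios, the genes most like GSH1 were CCS1, DSF2 and YRO2 (distances of 0.16, 0.21 and 0.23). CCS1, the copper chaperone gene of superoxide dismutase, had -1.68, -0.91 and -1.11. TDA7, AIM46 and MRX16 stood nearest to GSH2 (0.10, 0.21 and 0.27). Nearest to GLR1 were MMP1, an S-methylmethionine permease gene (0.21), ATR1, a multidrug exporter gene (0.36), and STB5, a transcription factor gene of NADPH metabolism (0.37). All 9 had fallen, as genes so near to a called gene nearly must, and 3 arrays are few points for such a likeness.

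Genes that use glutathione were represented by a list of 25 glutaredoxins, glutathione peroxidases, transferases and transferase-like proteins, glyoxalases and glutathione-dependent aldehyde enzymes. Of these 4 fell (16%), 0 rose and 21 did not pass, beside 3.05% lower and 0.812% higher over all genes. The list's median was -0.12. SFA1, the glutathione-dependent formaldehyde dehydrogenase gene, had -1.85, -1.49 and -1.53 (mean -1.62, adjusted p = 3.07e-06 by limma). GPX2, a glutathione peroxidase gene, had -1.61, -1.07 and -1.45 (mean -1.38), and the glutaredoxin gene GRX2 had -1.86, -1.56 and -0.74 (mean -1.39). GRX5, a mitochondrial glutaredoxin gene of iron-sulfur cluster assembly, fell by 0.67 on the log2 scale, a call that was lost without replicate 2 (-0.70), without replicate 3 (-0.73) and with the averaged signal (-0.59). After normexp GPX2 had -2.81 and GRX5 -1.13. The transferase genes GTT1 (-0.42) and GTT2 (-0.02) and the glyoxalase gene GLO1 (0.15) did not pass. With median centring 12 of the 25 were called lower and 1 higher, beside 17.8% lower and 4.28% higher over all genes.

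Beyond OPT1, none of 8 genes for carriers of glutathione, its conjugates or related compounds was called by limma, where 3.05% of all genes fell and 0.812% rose. Their median was -0.07. At an unadjusted p under 0.05 there were 2 lower and 1 higher of the 8, beside 628 lower and 406 higher of all 5539 genes. The smallest p was that of ATM1, a mitochondrial exporter gene, at -0.37 (adjusted p = 0.180 by limma). YCF1, whose product moves arsenite conjugates into the vacuole, had -0.63, -0.17 and -0.23 and a mean of -0.35 that did not pass. In the list for the supply of cysteine, glutamate and glycine 1 of 17 genes fell, CYS4 for cystathionine beta-synthase, at -0.88, -0.41 and -0.43 (mean -0.57, adjusted p = 0.0485 by limma). Thus 5.88% of this list fell and 0% rose, beside 3.05% and 0.812% of all genes. CYS4 no longer passed without any 1 of the arrays (-0.65 to -0.42), and with median centring it had -1.09 and passed. CYS3, which completes cysteine synthesis, had -0.36 without passing, and the list's median was -0.00. With median centring 6 of the 17 were called lower and 0 higher, where 17.8% of all genes were lower and 4.28% higher.

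Glr1 depends on NADPH, and of 13 genes of NADPH supply 1 fell: ALD6, a cytosolic aldehyde dehydrogenase gene, with -1.51, -1.23 and -0.96 (mean -1.23, adjusted p = 1.02e-04 by limma, and a mean of -2.06 after normexp). ZWF1, the first enzyme gene of the pentose phosphate pathway, had -0.15 and GND1 -0.44, and neither passed. In this list 7.69% fell and 0% rose, beside 3.05% and 0.812% of all genes, and the median was 0.01. With median centring 4 of the 13 were called lower and 0 higher, beside 17.8% and 4.28% of all genes. Among 5 thioredoxin and thioredoxin reductase genes, the parallel thiol system, TRR1 (-2.28) and TRX2 (-2.20) fell. That made 40% lower and 0% higher, beside 3.05% and 0.812% of all genes. With median centring 3 of the 5 were called lower and 0 higher, beside 17.8% and 4.28% of all genes. TRR1, which does for thioredoxin what GLR1 does for glutathione, had -2.54, -1.89 and -2.42, and GLR1 minus TRR1 was 0.05, 0.45 and 0.77. The reductase of glutathione therefore had the smaller decrease on each array, with no test beyond the 3 values.

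Of 13 regulators fixed for this pathway, YAP1 itself and RPN4, the proteasome gene regulator (-0.84), fell and 11 did not pass, with a median of 0.15. Thus 15.4% fell and 0% rose, beside 3.05% and 0.812% of all genes. This share counts YAP1, the mutated gene, whose lower reading had also served to call the direction of the ratios. With median centring 3 of the 13 were called lower and 2 higher, beside 17.8% and 4.28% of all genes. RPN4 did not pass after normexp (-0.94), and median centring gave -1.44. SKN7, a partner of Yap1 in the oxidative stress response, had -0.14, and MET4, the activator of sulfur metabolism genes, had 0.17. Across all 6 lists 10 of 81 genes fell, YAP1 among them, or 12.3%, and 0 rose, beside 3.05% and 0.812% of all genes. The lists were chosen with earlier results of these arrays known, and these counts are descriptions.

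**Figure D5:**
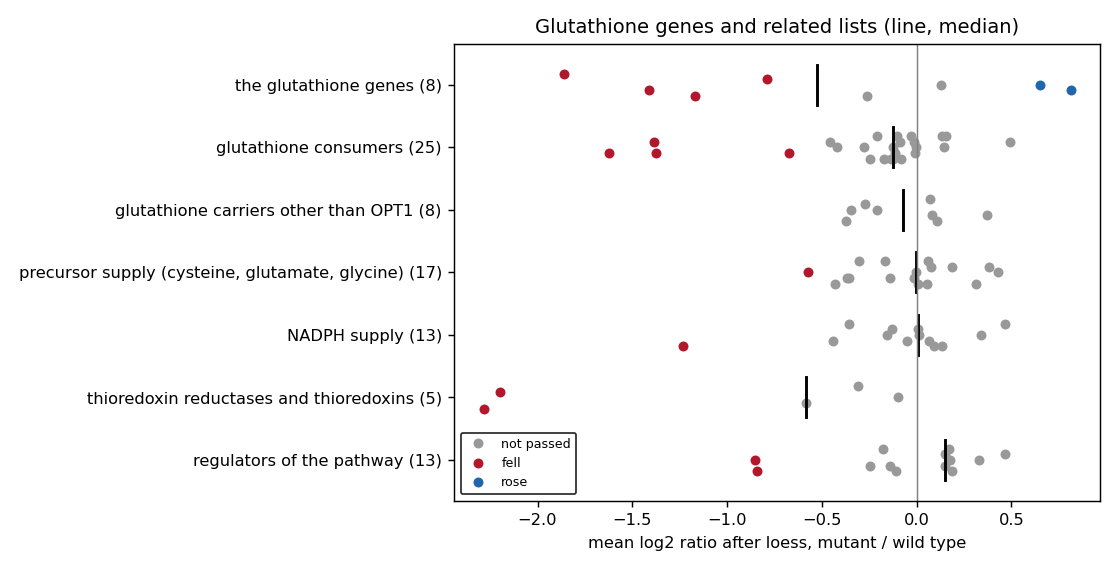
Mean log2 ratio of mutant over wild type after loess (x axis) for each gene of the glutathione set and of 6 related lists (y axis, number of genes in brackets), coloured by limma's call, with the median as a line. The 2 called increases in the glutathione set are DUG2 and DUG3, and the related lists hold 0 by limma. At an unadjusted p under 0.05, 7 of their 81 genes are higher, beside 406 of all 5539 genes. The lowest values of the related lists are those of TRR1 and TRX2.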

How the data were processed

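The deposited table held 1 log2 ratio per spot for 3 arrays, not normalized, with steps before deposit not given in the sources used here. Each deposited log2 value was the logarithm of a quotient of whole numbers, in 100% of spots (relative tolerance 1e-13). Channel signals follow from these up to a common factor. The factor was settled from agreement between duplicate spots and between arrays and from the density of signals. On simulated arrays it was exact for 85.8%, 88.9% and 90.3% of spots. These arrays were built from the recovered signals themselves, so the rate on the real arrays is not known and may be lower. A loess curve of ratio on mean log2 signal (span 0.3) was subtracted within each array, spots of a gene were averaged, and limma 3.58.1 in R 4.3.3 tested 5539 genes. On simulated ratios limma recovered 22% of 50 genes changed 1.5-fold, 74% changed 2-fold, 94% changed 4-fold and 100% changed 8-fold, with 4 false among 149 calls. The simulated noise was normal and, for a given gene, equally wide on the 3 arrays. The real arrays differed in spread (SD over genes 0.55, 0.30 and 0.34), so their rate of false calls is not known and may be higher. Gene names came from the platform annotation (1918 spots had none), and gene order from RefSeq's R64 table. The named genes were fixed by rule: the 8 genes, YAP1, each called gene of 6 related lists, the gene of smallest p of a list with no call, and the 3 nearest genes of GSH1, GSH2 and GLR1. Others (among them GTT1, GTT2, GLO1, YCF1, CYS3, ZWF1, GND1, SKN7, MET4 and genes beside the 8) were added for their role or position after values were seen. Genes and lists were chosen with earlier results of these data known. Alternatives covered normalization, background, filters, spots, replicates, variance model and threshold. The precision is limited by the number of arrays. Values were prepared with Python 3.11.15, and figures with matplotlib 3.10.9.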

Additional observations from a re-analysis of the deposited data

How the results depend on the processing

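Of 18 alternatives, 3 were added after seeing the data: loess on the averaged signal, loess with a common factor of 1, and quantile normalization. GSH1, GSH2, GLR1 and ECM38 stayed lower and called in 17 of them; the exception was the unmoderated statistic, under which limma's fit called 0 genes in either direction and 0 of the 8, with 475 genes and 5 of the 8 at an unadjusted p under 0.05. On the deposited scale, where the median of all genes was -0.66, all 8 genes were called lower and 0 higher, so that DUG2 (-0.46), DUG3 (-0.47) and OPT1 (-0.77) turned sign. With median centring OPT1 (-0.13) turned, 5 of the 8 were lower and 0 higher. Among the 8, the called increases (2 as reported) numbered 0 with scaled arrays and with normexp, 1 at an adjusted p under 0.01, and 0 to 2 with an array left out, 0 of them without replicate 3. The 4 decreases were called whichever array was left out. With median centring, without replicate 2 and without replicate 3, limma's fit gave all 8 genes the same SE (0.17, 0.23 and 0.23). The spread of a single gene over arrays therefore did not enter the p-values of these 3 settings. Genes called lower and higher numbered 984 and 237 with median centring, 4191 and 1 on the deposited scale, 281 and 120 with an intensity trend and robust spread, 90 and 18 at an adjusted p under 0.01, 138 and 27 with block medians, 153 and 95 with the averaged signal, and 281 and 137 with quantile normalization. With an array left out they numbered 124 to 154 lower and 26 to 58 higher, the 26 without replicate 3. The causes were not tested. Of the other called genes, SFA1, GPX2, GRX2, ALD6, TRR1 and TRX2 passed in all alternatives but the unmoderated statistic, and CYS4 lost its call in 11. No paired analysis was possible because each array already sets mutant against wild type and there is 1 group of arrays. The recovered mutant signal was below its channel's median for GSH2 on all 3 arrays, for GLR1 on replicates 1 and 3 and for GSH1 on replicate 1. With a normexp background correction these decreases were larger on the log2 scale (-2.32 for GSH2, -2.83 for GLR1 and -1.66 for GSH1). What share of the signals was background was not tested.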
